A study of Mus musculus with 6 samples.

Results

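The genes described here are 31 genes of keratinocytes, the epithelial cells of the epidermis, as they were detected in macrophages sorted from skin. They were taken from a written list as a gauge of epidermal RNA in each sample, and each was read from a probe set that carries exactly 1 gene symbol. Of the 31 genes, 30 had such a probe set, out of 22180 genes in all. Krt5 shares its probe set with another keratin gene and was not analysed here. Flg, the gene of the filament-aggregating protein filaggrin, was dim and was not tested, which left 29 members among the 15529 genes tested.

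Gene expression was measured on arrays in dermal macrophages from the ear skin of C57Bl/6 mice at 2 weeks of age. All mice were Cx3cr1+/gfp, so that every sample, whatever its subset, came from animals carrying green fluorescent protein in place of 1 of the alleles of Cx3cr1, which encodes the receptor of the chemokine fractalkine. Cells were sorted into CX3CR1high, CX3CR1int (intermediate) and CX3CR1low cells, with 2 samples in each subset, each from 4 pooled mice, and the samples of a subset came from 2 independent litters. The other markers of the sort are not given in the sources used here. The labels number the samples of each subset 1 and 2, and values are given below in that order. All values are log2 signals of the normalised arrays, and a gene was called where its difference had an adjusted p below 0.05 over all genes tested.

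The samples were close to each other as a whole. Array medians lay between 4.84 and 4.94, and genes correlated at 0.974 to 0.977 within a subset and at 0.96 to 0.978 between subsets. The labelled cell type was borne out by Adgre1, a surface antigen widely used to mark macrophages, at 10.63 to 10.95, and by Csf1r, the receptor on which macrophages depend, at 11.15 to 11.58. None of the 14 measured core macrophage genes was dim. Col1a2, the brightest gene of a fibroblast list described below, was at 10.04 to 11.56, a range that overlapped those of Adgre1 and Csf1r. Cx3cr1 itself was at 10.55 and 9.51 in CX3CR1high, 7.05 and 6.84 in CX3CR1int, and 5.87 and 7.01 in CX3CR1low samples, and separated CX3CR1high cells from the rest but not CX3CR1int from CX3CR1low cells. With only 2 arrays for each subset, precision is limited throughout. Each p-value sets a difference against the spread between these samples, moderated by that of other genes of similar signal. The samples are pools, so the spread between single mice was not measured.

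The epidermis is renewed from a basal layer that is fixed to the basement membrane by hemidesmosomes and expresses the keratin pair Krt5 and Krt14. Cells that leave this layer switch to Krt1 and Krt10, strengthen their desmosomes and, near the surface, build a cornified barrier from proteins such as involucrin and filaggrin. Macrophages do not make this filament and barrier system, and keratinocyte transcripts are therefore used as a sign of epidermal RNA in sorted skin cells. In a bulk sample of this kind, fewer cells of a type and less RNA per cell cannot be told apart.

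The CX3CR1low samples carried the highest levels of most members. CX3CR1low sample 2 was the highest of the 6 samples for 21 of the 30 measured members, and CX3CR1low sample 1 was the highest for 4. The lowest sample was CX3CR1high sample 1 or CX3CR1int sample 1 for 10 members each. The mean log2 level over the 30 members was 5.995 and 6.097 in CX3CR1high, 6.071 and 6.213 in CX3CR1int, and 6.463 and 6.892 in CX3CR1low samples. Both CX3CR1low samples thus lay above the other 4, and the CX3CR1high and CX3CR1int samples overlapped. Some members, such as Calml3 and Lamb3, lay close to the array medians in all samples.

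**Figure D1:**
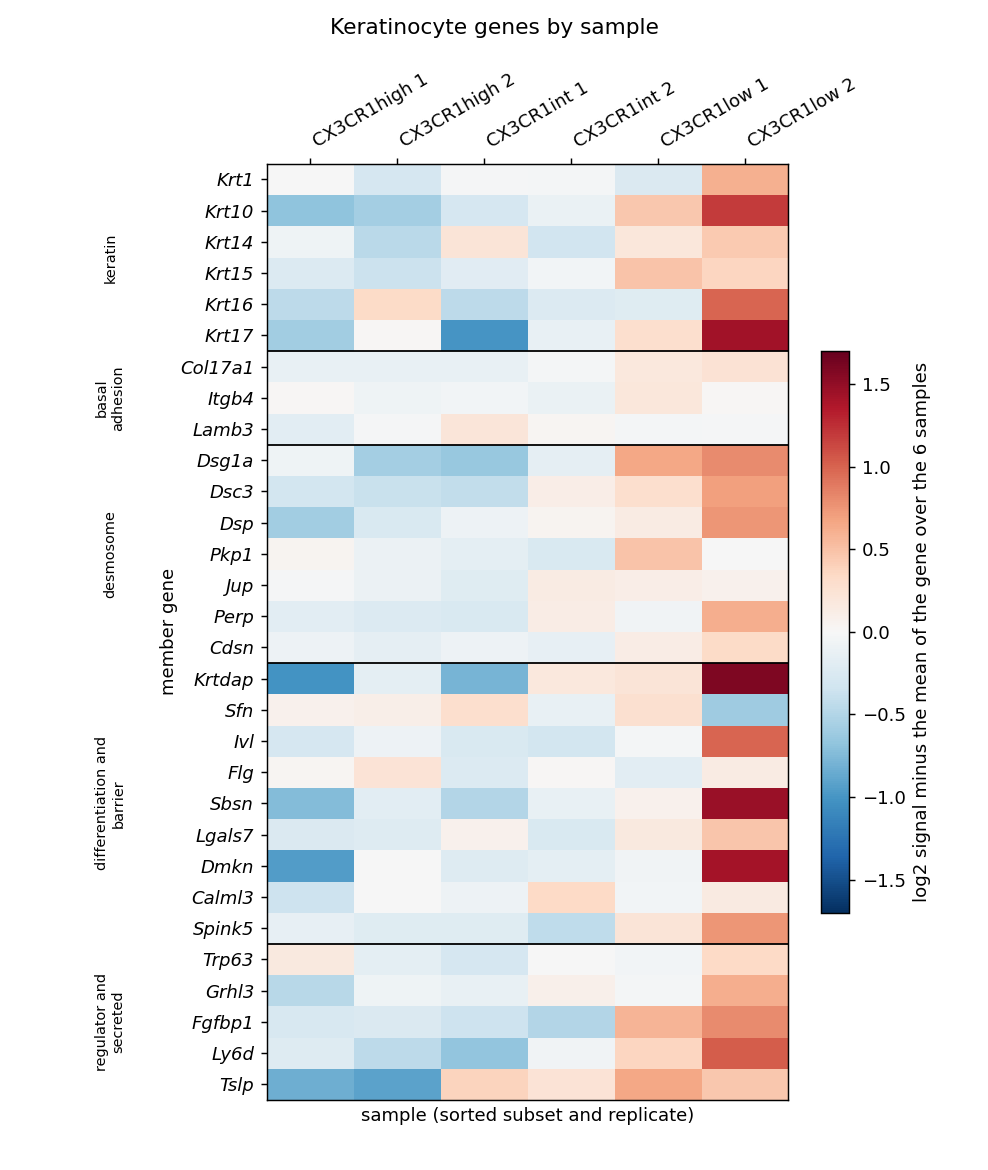
Log2 signal of each of the 30 measured members (rows, grouped by role) in each of the 6 samples (columns), as colour, relative to the mean of the gene over the 6 samples. The column of CX3CR1low sample 2 holds the highest value for 21 members, while Sfn is lowest there.

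In CX3CR1high against CX3CR1low cells, which asks what sets apart the ends of the CX3CR1 range, 2 members were called, and both fell. They were Krt10 and Tslp, while 0.399% of all genes tested were called in this comparison and 0.187% were called lower. At an unadjusted p below 0.05, 16 members were lower, against 4.84% of all genes. With the replicate number as a term in the model, here called the replicate block, 4 members were called, all lower, with Krtdap and Krt17 beside those 2, against 0.992% of all genes called and 0.502% called lower. In direction, 28 of the 29 members were lower, with a median log2 difference of -0.585, against 0.005 over all genes tested. The samples of the subsets did not overlap for 20 members, all lower in CX3CR1high cells, as was the case for 18.4% of all genes tested, while 19.8% of all genes did not overlap and were higher. Within the samples numbered 1 the members' median was -0.41, and within those numbered 2 it was -0.89, with 27 of 29 members lower in each. Without CX3CR1low sample 2, the median was -0.395 and 0 members were called. No member was called either without CX3CR1high sample 1 or without CX3CR1high sample 2, and 1 was called without CX3CR1low sample 1, CX3CR1int sample 1 or CX3CR1int sample 2.

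Among the keratins, which form the intermediate filaments of epithelial cells, the suprabasal Krt10 changed most clearly. Krt10 had a log2 signal of 8.27 and 8.38 in CX3CR1high, 8.67 and 8.85 in CX3CR1int, and 9.42 and 10.15 in CX3CR1low samples. The 3 subsets did not overlap, and the order of Krt10 was the reverse of that of the CX3CR1 sort. It fell 2.75-fold in CX3CR1high against CX3CR1low cells (adjusted p = 0.0439, log2 difference -1.46 with an SE of 0.23, 2 samples in each subset, and adjusted p = 0.0146 in the fit with the block). That call rests on a narrow margin, since the adjusted p ranged from 0.0146 to 0.284 over the alternatives and passed the threshold without CX3CR1low sample 1 alone among the fits that left out a sample.

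Krt1, the partner with which the keratin 10 protein pairs in filaments, overlapped between the subsets. Krt1 was at 5.86 and 5.58 in CX3CR1high, 5.85 and 5.84 in CX3CR1int, and 5.63 and 6.47 in CX3CR1low samples, so that only CX3CR1low sample 2 stood apart. The Krt1 difference between CX3CR1high and CX3CR1low cells was -0.33 (95% interval -0.94 to 0.28, adjusted p = 0.772).

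The basal keratin genes Krt14 and Krt15 differed less than Krt10 and more than Krt1 between CX3CR1high and CX3CR1low cells. Krt14 was at 8.21 and 7.82 in CX3CR1high, 8.50 and 7.96 in CX3CR1int, and 8.48 and 8.72 in CX3CR1low samples, so that CX3CR1int sample 1 lay above CX3CR1low sample 1. Krt15, a keratin of basal and hair follicle cells, was at 6.73 and 6.59 in CX3CR1high, 6.77 and 6.91 in CX3CR1int, and 7.44 and 7.33 in CX3CR1low samples, so that both CX3CR1low samples were above all others. Neither was called between CX3CR1high and CX3CR1low cells (Krt14 -0.585, adjusted p = 0.459, and Krt15 -0.725, adjusted p = 0.181).

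Krt16 and Krt17, keratins of the hair follicle and of stressed or wounded epidermis, set the 2 samples of each subset apart. Krt17 was at 5.63 and 6.24 in CX3CR1high, 5.23 and 6.10 in CX3CR1int, and 6.51 and 7.65 in CX3CR1low samples. Sample 2 was the higher in each subset, and the CX3CR1low samples were above the other 4. Krt17 was 2.21-fold lower in CX3CR1high against CX3CR1low cells (-1.15 ± 0.41, SE, adjusted p = 0.392), and the difference passed in the fit with the block (adjusted p = 0.0360). Without CX3CR1low sample 2 the Krt17 difference was -0.575. Krt16 was at 5.84 and 6.61 in CX3CR1high, 5.84 and 6.05 in CX3CR1int, and 6.07 and 7.27 in CX3CR1low samples, with overlap between CX3CR1high and CX3CR1low (-0.445, adjusted p = 0.790).

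**Figure D2:**
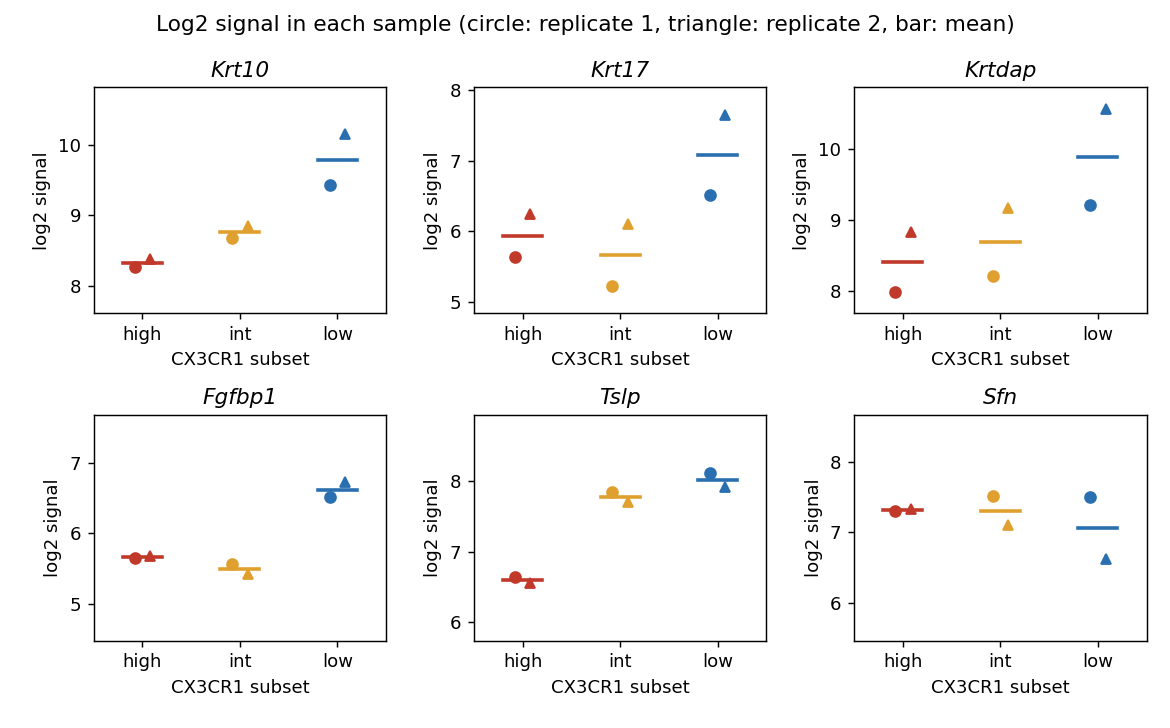
Log2 signal of 6 members in each sample by CX3CR1 subset, with circles for replicate 1, triangles for replicate 2 and bars for the mean of the 2; each panel spans the same number of log2 units. Krt10 is highest in CX3CR1low samples, Tslp is low in CX3CR1high samples alone, and the triangles lie above the circles in every subset for Krt17 and Krtdap.

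Among the genes of differentiation and barrier, Krtdap, Sbsn and Dmkn had the widest range between samples. They encode proteins secreted by differentiating keratinocytes and lie next to each other on chromosome 7, with no other protein-coding gene between them in the RefSeq table. Krtdap was at 7.98 and 8.83 in CX3CR1high, 8.21 and 9.17 in CX3CR1int, and 9.21 and 10.58 in CX3CR1low samples. Sbsn was at 6.39 and 6.94 in CX3CR1high, 6.63 and 6.99 in CX3CR1int, and 7.19 and 8.59 in CX3CR1low samples. Dmkn was at 5.54 and 6.48 in CX3CR1high, 6.27 and 6.33 in CX3CR1int, and 6.43 and 7.90 in CX3CR1low samples. For all 3 genes sample 2 was the higher of its subset and CX3CR1low sample 2 the highest of all, and Dmkn alone overlapped between CX3CR1high and CX3CR1low cells. Krtdap was 2.81-fold lower in CX3CR1high against CX3CR1low cells (-1.49 ± 0.47, SE, adjusted p = 0.325), a difference that passed in the fit with the block (adjusted p = 0.00995) and was -0.805 without CX3CR1low sample 2. Without the same sample the difference was -0.525 for Sbsn and -0.42 for Dmkn, and without CX3CR1low sample 1 it was -1.93 and -1.89. The Dmkn difference was -0.685 without CX3CR1high sample 1. With all samples, Sbsn and Dmkn were 2.34-fold and 2.23-fold lower and were called by neither fit (adjusted p = 0.355 and 0.451, and 0.0798 and 0.150 with the replicate block).

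The promoters of Krt10, the called keratin, and of these 3 neighbouring genes are shown because their transcripts had the largest differences among the members besides Tslp. The sequences are from RefSeq (GRCm38.p6), 250 bases before to 50 bases after an annotated start, the first listed for a gene with several, and 17 of the 31 members had an entry. Capitals mark the motifs found on either strand.
Krt10 (chr11:99389315-99389614, strand -): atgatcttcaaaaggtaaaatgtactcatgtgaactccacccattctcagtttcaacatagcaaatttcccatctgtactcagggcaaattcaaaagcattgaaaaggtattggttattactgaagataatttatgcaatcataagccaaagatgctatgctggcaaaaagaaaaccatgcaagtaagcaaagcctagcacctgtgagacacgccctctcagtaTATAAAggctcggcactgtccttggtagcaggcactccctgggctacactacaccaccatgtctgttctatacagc
Sbsn (chr7:30751221-30751520, strand +): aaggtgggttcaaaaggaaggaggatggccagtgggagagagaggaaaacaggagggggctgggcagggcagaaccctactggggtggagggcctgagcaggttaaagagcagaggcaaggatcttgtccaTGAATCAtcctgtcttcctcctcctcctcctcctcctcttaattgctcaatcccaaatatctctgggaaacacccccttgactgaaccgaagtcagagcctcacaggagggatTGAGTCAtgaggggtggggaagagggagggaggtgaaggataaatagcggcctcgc
Dmkn (chr7:30763506-30763805, strand +): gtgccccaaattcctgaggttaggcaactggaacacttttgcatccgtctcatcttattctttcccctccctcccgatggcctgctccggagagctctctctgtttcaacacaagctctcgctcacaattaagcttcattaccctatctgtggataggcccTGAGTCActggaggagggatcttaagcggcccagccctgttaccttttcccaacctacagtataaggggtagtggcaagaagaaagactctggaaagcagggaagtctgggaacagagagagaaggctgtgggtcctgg
Krtdap (chr7:30787655-30787954, strand +): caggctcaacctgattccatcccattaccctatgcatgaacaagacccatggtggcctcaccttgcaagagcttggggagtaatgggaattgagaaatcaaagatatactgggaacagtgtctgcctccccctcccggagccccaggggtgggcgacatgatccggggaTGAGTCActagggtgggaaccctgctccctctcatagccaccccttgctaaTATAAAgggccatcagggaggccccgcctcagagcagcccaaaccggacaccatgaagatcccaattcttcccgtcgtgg
Of the motifs searched, TATAAA, the TATA box, lay 26 bases before the start of Krt10 and 30 before that of Krtdap, and 13.6% of the 32851 promoters in the table hold it. TGANTCA, the motif of AP-1 factors, occurred in the promoters of Sbsn, Dmkn and Krtdap and not in that of Krt10, against 7.81% of all promoters. AACNGGTT, a motif of grainyhead factors such as the member Grhl3, was in none of these 4 windows and in 2.09% of all promoters. Among the 17 members with an entry, 6 held TATAAA, 5 held TGANTCA and 1 held AACNGGTT in any listed promoter, and no motif overlapped another in the windows shown. These counts are of genes, some with several promoters, and the shares above are of single promoters, so they cannot be compared.

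The other barrier genes were less variable. Ivl, which encodes the cornified envelope protein involucrin, was at 5.13 and 5.33 in CX3CR1high, 5.16 and 5.10 in CX3CR1int, and 5.38 and 6.41 in CX3CR1low samples, so that only CX3CR1low sample 2 stood apart. Lgals7, the gene of the epithelial lectin galectin-7, was at 5.39 and 5.42 in CX3CR1high, 5.71 and 5.38 in CX3CR1int, and 5.80 and 6.11 in CX3CR1low samples. Spink5, an inhibitor of the proteases that shed corneocytes, had a difference of -0.66 between CX3CR1high and CX3CR1low cells, and Calml3, an epithelial relative of calmodulin, had one of -0.23. None of these was called, and the smallest adjusted p of the 8 tested members of this group was 0.325. Flg stayed between 4.00 and 4.46 in all 6 samples, around the dim level.

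Sfn, the 14-3-3 sigma protein of stratified epithelia, departed from the rest. It was at 7.30 and 7.33 in CX3CR1high, 7.51 and 7.10 in CX3CR1int, and 7.50 and 6.62 in CX3CR1low samples, so that CX3CR1low sample 2, the highest for most members, was the lowest for Sfn. Sfn was the only tested member with a higher mean in CX3CR1high than in CX3CR1low cells (0.255, 95% interval -0.39 to 0.90, adjusted p = 0.849).

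The desmosome genes encode the plaques and cadherins that join keratinocytes to each other, and all 7 were lower in CX3CR1high against CX3CR1low cells, none of them called. Dsp, the gene of the plaque protein desmoplakin, was at 5.63 and 5.96 in CX3CR1high, 6.14 and 6.27 in CX3CR1int, and 6.36 and 6.98 in CX3CR1low samples, in the same order of subsets as Krt10 and without overlap. Perp, a membrane protein that desmosomes need, was at 6.24 and 6.18 in CX3CR1high, 6.15 and 6.54 in CX3CR1int, and 6.35 and 7.03 in CX3CR1low samples. Pkp1, the gene of plakophilin 1, was at 5.61 and 5.47 in CX3CR1high, 5.41 and 5.31 in CX3CR1int, and 6.06 and 5.56 in CX3CR1low samples, and here the higher CX3CR1low sample was sample 1. The cadherin gene Dsg1a differed most in this group (-1.06 ± 0.23, SE, adjusted p = 0.142), followed by Dsp (-0.875, adjusted p = 0.238) and the cadherin gene Dsc3 (-0.835, adjusted p = 0.242). Dsg1a was weak, at 5.20 and 4.70 in CX3CR1high, 4.63 and 5.12 in CX3CR1int, and 5.94 and 6.08 in CX3CR1low samples. Outside CX3CR1low cells it thus lay close to the array medians. Jup, which encodes plakoglobin, a plaque protein not limited to epithelia, stayed between 7.03 and 7.37 (-0.155, 95% interval -0.58 to 0.27, adjusted p = 0.864). Cdsn, the gene of the corneodesmosome protein corneodesmosin, had a difference of -0.345 (adjusted p = 0.577).

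The genes that anchor basal keratinocytes to the basement membrane differed little. Col17a1, a collagen of hemidesmosomes, was at 6.26 in both CX3CR1high samples, 6.26 and 6.36 in CX3CR1int, and 6.57 and 6.63 in CX3CR1low samples, so that the CX3CR1low samples were above the other 4 by a small step. Itgb4, the hemidesmosome integrin chain, was at 5.37 and 5.28 in CX3CR1high, 5.30 and 5.23 in CX3CR1int, and 5.54 and 5.36 in CX3CR1low samples. Lamb3, a laminin chain of the epidermal basement membrane, was at 4.92 and 5.08 in CX3CR1high, 5.31 and 5.13 in CX3CR1int, and 5.07 and 5.08 in CX3CR1low samples. Differences between CX3CR1high and CX3CR1low cells were -0.34, -0.125 and -0.075 for the 3 genes, with a smallest adjusted p of 0.574.

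Among the regulators and secreted or surface products, Tslp had a pattern of its own. Tslp encodes thymic stromal lymphopoietin, a cytokine that keratinocytes release to act on dendritic and other immune cells. It was at 6.64 and 6.56 in CX3CR1high, 7.85 and 7.70 in CX3CR1int, and 8.12 and 7.92 in CX3CR1low samples. The CX3CR1high samples were far below the other 4, and the samples of a subset lay close together. Tslp fell 2.68-fold in CX3CR1high against CX3CR1low cells (adjusted p = 0.0180, log2 difference -1.42 with an SE of 0.18, and adjusted p = 0.0101 in the fit with the block). Against CX3CR1int cells it was 2.26-fold lower (-1.18 ± 0.18, SE, adjusted p = 0.0656), and this difference passed once the block was added (adjusted p = 0.0363). Between CX3CR1int and CX3CR1low cells the difference was -0.245 (95% interval -0.64 to 0.15, adjusted p = 0.996). The call against CX3CR1low cells ended without any single sample of the 2 subsets, with adjusted p between 0.0674 and 0.188, while the difference stayed between -1.32 and -1.52. Whether the Tslp transcript came from keratinocytes was not tested.

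Fgfbp1, a secreted carrier of fibroblast growth factors, and Ly6d, a surface protein of stratified epithelia, set the CX3CR1low samples apart from both other subsets. Fgfbp1 was at 5.65 and 5.68 in CX3CR1high, 5.57 and 5.43 in CX3CR1int, and 6.51 and 6.73 in CX3CR1low samples, a gap wider than the distance between any samples of the same subset. It was 1.94-fold lower in CX3CR1high against CX3CR1low cells (-0.955 ± 0.18, SE) and missed the threshold (adjusted p = 0.0751, and 0.0558 with the replicate block). Ly6d was at 7.64 and 7.42 in CX3CR1high, 7.19 and 7.81 in CX3CR1int, and 8.23 and 8.89 in CX3CR1low samples (-1.03, adjusted p = 0.229). Trp63, the transcription factor p63 that specifies stratified epithelium, overlapped between all subsets, at 5.41 and 5.08 in CX3CR1high, 4.97 and 5.24 in CX3CR1int, and 5.21 and 5.59 in CX3CR1low samples (-0.155, 95% interval -0.63 to 0.32, adjusted p = 0.882). Grhl3, a grainyhead factor of barrier formation, had a difference of -0.565 between CX3CR1high and CX3CR1low cells (adjusted p = 0.514).

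**Figure D3:**
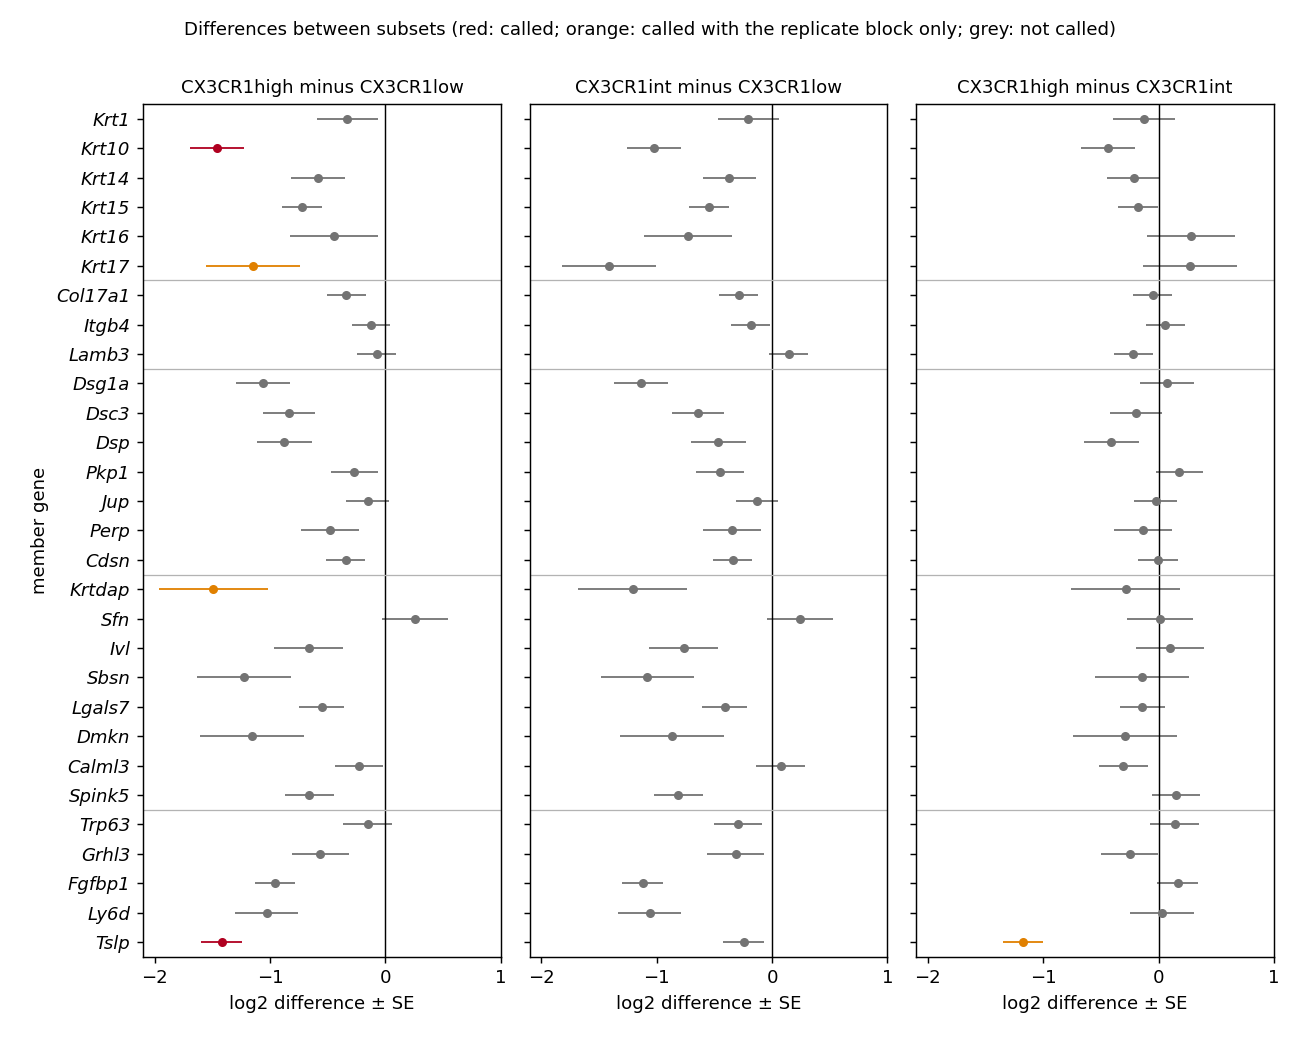
Log2 difference (points) with its standard error (bars) of the 29 tested members in the 3 comparisons of subsets. Red points passed the test, orange points passed with the replicate block only; 28 of 29 points lie left of 0 between CX3CR1high and CX3CR1low cells, and Tslp stands alone between CX3CR1high and CX3CR1int cells.

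In CX3CR1int against CX3CR1low cells, 26 of 29 members were lower, with a median of -0.45 against 0.01 over all genes tested. No member was called by limma, with or without the replicate block, and 0.00644% of all genes tested were called, a single gene. At an unadjusted p below 0.05, 11 members were lower and 0 higher, against 2.67% and 2.22% of all genes. The samples did not overlap for 20 members that were lower in CX3CR1int cells, against 14.8% of all genes, and for 1 that was higher, Lamb3, against 16.6%. The largest differences were those of Krt17 (-1.42), Krtdap (-1.21), Dsg1a (-1.14) and Fgfbp1 (-1.12), and the smallest adjusted p was that of Fgfbp1 (0.363), while in the fit with the block it was that of Krt17 (0.193). The median was -0.24 within samples 1 and -0.63 within samples 2, and it was -0.255 without CX3CR1low sample 2.

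In CX3CR1high against CX3CR1int cells, 18 members were lower and 11 higher, with a median of -0.125 against 0 over all genes tested. No member was called by limma, against 0.142% of all genes tested, and 1 was lower at an unadjusted p below 0.05, against 3.72%. The samples did not overlap for 5 members that were lower in CX3CR1high cells and 2 that were higher, against 18.5% and 18.3% of all genes. With the replicate block Tslp was called, against 0.303% of all genes called and 0.161% called lower. Without Tslp, the differences of the other 28 tested members lay between -0.435, that of Krt10, and 0.28, that of Krt16. The comparisons of CX3CR1high and of CX3CR1int cells with CX3CR1low cells share the CX3CR1low samples, so that the members' values in them are not independent.

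Some members were higher in the sample numbered 2 than in that numbered 1 within every subset, though none passed the test. The labels do not say whether a number marks a litter, but the numbers also separate the sex-linked genes. Xist, which is expressed from the inactive X chromosome of females, was at 10.99 to 11.39 in samples 2 and 7.39 to 7.97 in samples 1. The Y-linked Eif2s3y was at 2.99 to 3.72 in samples 2 and 7.76 to 8.27 in samples 1. Differences between the numbers, and the replicate block, therefore cannot be told apart from the sex of the pooled mice. With the subsets as terms, no member was called by limma between the numbers, 8 were higher and 0 lower in samples 2 at an unadjusted p below 0.05, against 4.17% and 3.61% of all genes, and 0.0837% of all genes tested were called. In all 3 subsets 9 members were higher in sample 2, against 12% of all genes, and 3 were lower, against 16.5%. Krtdap was higher in sample 2 by 0.85 in CX3CR1high, 0.96 in CX3CR1int and 1.37 in CX3CR1low cells (1.06 ± 0.15, SE, adjusted p = 0.0556). Krt17 was higher by 0.61, 0.87 and 1.14 in the same subsets (0.87 ± 0.16, SE, adjusted p = 0.144). Krt16, Sbsn and Dmkn were higher by 0.73, 0.77 and 0.82 on average, with a smallest adjusted p of 0.365 among them. For the basal keratin genes Krt14 and Krt15, for Tslp and for Fgfbp1 the averages were -0.23, -0.04, -0.14 and 0.04. The median over all members was 0.38 in CX3CR1low, 0.13 in CX3CR1int and 0 in CX3CR1high cells.

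**Figure D4:**
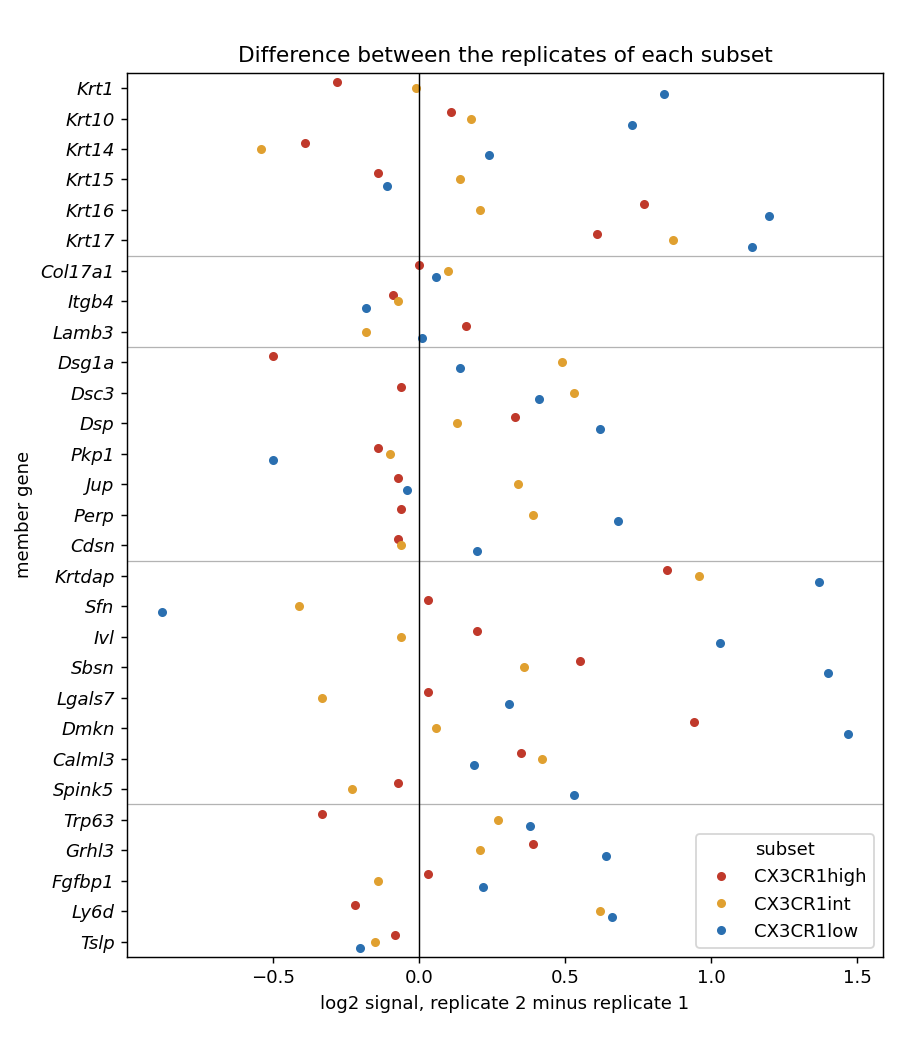
Log2 signal of sample 2 minus that of sample 1 within each subset (colours) for the 29 tested members (rows, grouped by role). Krtdap, Krt17, Krt16, Sbsn and Dmkn lie right of 0 in all 3 subsets, and Tslp lies close to 0 in all of them.

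Other genes of the epidermis, 85 on 5 lists that hold no member, gave 64 tested genes. Between CX3CR1high and CX3CR1low cells 49 were lower and 12 higher, with a median of -0.23. Of all 15529 genes tested, 7509 were lower and 7874 higher. The median of the 64 genes was -0.045 within samples 1, with 34 lower. Within samples 2 it was -0.395, with 51 lower. Of the 64 genes 1 was called lower and 1 higher, against 0.399% of all genes tested called in this comparison. Krt2, a keratin of the upper suprabasal layers, was at 6.18 and 5.78 in CX3CR1high, 6.88 and 6.56 in CX3CR1int, and 7.23 and 7.49 in CX3CR1low samples, in the same order of subsets as Krt10. Krt2 fell 2.6-fold (-1.38 ± 0.22, SE, adjusted p = 0.0428, and 0.0818 to 0.265 with any single sample left out). Itga6, an integrin chain that pairs with the product of Itgb4 in hemidesmosomes and that other cells, leukocytes among them, also express, rose 3.06-fold (adjusted p = 0.0168) and was at 7.50 and 7.77 in CX3CR1high, 5.93 and 6.03 in CX3CR1int, and 5.88 and 6.16 in CX3CR1low samples. Against CX3CR1int cells Itga6 rose 3.15-fold (adjusted p = 0.0405), the only gene of the 64 called there. With the replicate block Elovl4, an enzyme that makes the very long fatty acids of the barrier, was also called between CX3CR1high and CX3CR1low cells (-1.2, adjusted p = 0.0427). Elovl4 was at 4.83 and 4.71 in CX3CR1high, 4.78 and 4.94 in CX3CR1int, and 5.64 and 6.30 in CX3CR1low samples. By role, 20 of 22 tested barrier genes, 7 of 11 keratins, 9 of 12 junction genes, 9 of 11 regulators and 4 of 8 genes of basal adhesion were lower in CX3CR1high against CX3CR1low cells. Within samples 1 the counts, in the same order of roles, were 13, 5, 5, 7 and 4. Within samples 2 they were 19, 9, 11, 9 and 3.

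Between the numbered samples, 19 of the 22 tested barrier genes were higher in samples 2 on average, against 6771 of the 15529 genes tested. In all 3 subsets 11 barrier genes were higher in sample 2, against 12% of all genes, and limma called none. At an unadjusted p below 0.05, 8 were higher and 0 lower, against 4.17% and 3.61% of all genes. Fibroblast genes also stood higher in samples 2, 15 of 16 on average and 7 in all 3 subsets, with 0 called by limma and 6 higher and 0 lower at an unadjusted p below 0.05. Sprr1a, a precursor of the cornified envelope, was at 7.73 and 8.22 in CX3CR1high, 6.50 and 9.28 in CX3CR1int, and 8.59 and 10.50 in CX3CR1low samples (1.73 ± 0.35, SE, for sample 2 minus sample 1, adjusted p = 0.191). Asprv1, a protease that processes filaggrin, was at 6.00 and 6.93 in CX3CR1high, 5.69 and 6.65 in CX3CR1int, and 6.05 and 7.95 in CX3CR1low samples (1.26 ± 0.21, SE, adjusted p = 0.0960). Lor, the gene of the envelope protein loricrin, was 0.93 higher in samples 2 (adjusted p = 0.179).

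Most genes of fibroblasts and mast cells were also lower in CX3CR1high cells, and their part in the members' differences was not tested. Of 16 tested fibroblast genes 14 were lower in CX3CR1high against CX3CR1low cells, and 0 were called. At an unadjusted p below 0.05, 11 were lower, against 4.84% of all genes. With the replicate block 5 were called lower, against 0.502% of all genes. The median difference of the fibroblast genes was -0.565 within samples 1 and -1.14 within samples 2. Their mean log2 level was 6.638 and 6.666 in CX3CR1high, 6.844 and 6.999 in CX3CR1int, and 7.114 and 7.773 in CX3CR1low samples, with CX3CR1low sample 2 again the highest. Their summed linear signal ranged from 2886.8 to 2898.6 in CX3CR1high, 3829.5 to 3888.8 in CX3CR1int, and 4587.4 to 7520.7 in CX3CR1low samples, while that of the 30 members ranged from 2591.7 to 2847.0, 2930.0 to 3333.7, and 4116.3 to 6479.5 in the same subsets. The fibroblast collagen gene Col1a1 was at 7.05 and 6.96 in CX3CR1high, 7.39 and 7.42 in CX3CR1int, and 7.86 and 8.28 in CX3CR1low samples (-1.07, adjusted p = 0.0716, and 0.0453 with the replicate block), and the proteoglycan gene Dcn had a difference of -1.24 (adjusted p = 0.0782, and 0.0484 with the replicate block).

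Mast cell genes had another order of samples. All 7 tested mast cell genes were lower in CX3CR1high against CX3CR1low cells and 3 were called, against 0.187% of all genes called lower. They were the protease genes Mcpt4 and Cma1 and Cpa3, the mast cell carboxypeptidase. Cpa3 was at 3.82 and 4.32 in CX3CR1high, 6.41 and 6.51 in CX3CR1int, and 7.80 and 7.08 in CX3CR1low samples (adjusted p = 0.00512). The summed linear signal of the 9 mast cell genes ranged from 208.0 to 221.2 in CX3CR1high, 417.0 to 455.0 in CX3CR1int, and 575.4 to 776.4 in CX3CR1low samples. Here CX3CR1low sample 1 was above sample 2, the opposite of 23 of the 29 tested members. Tslp was not among those 23, and its order of the 6 samples was the same as that of this summed signal. Of the 3 called mast cell genes, Mcpt4 had that order. Cpa3 and Cma1 did not, since both were higher in CX3CR1int sample 2 than in CX3CR1int sample 1. A link between Tslp and mast cells was not tested. Core macrophage genes had summed signals of 29771.8 to 30238.7 in CX3CR1high, 29299.5 to 31585.8 in CX3CR1int, and 28729.1 to 32106.7 in CX3CR1low samples, and none of 14 was called in any comparison of subsets. Endothelial and melanocyte genes had medians of -0.155 and -0.41 between CX3CR1high and CX3CR1low cells, with 0 of 9 and 0 of 7 called by limma. At an unadjusted p below 0.05, 1 and 4 were lower and 0 and 1 higher, against 751 lower and 748 higher of the 15529 genes tested.

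**Figure D5:**
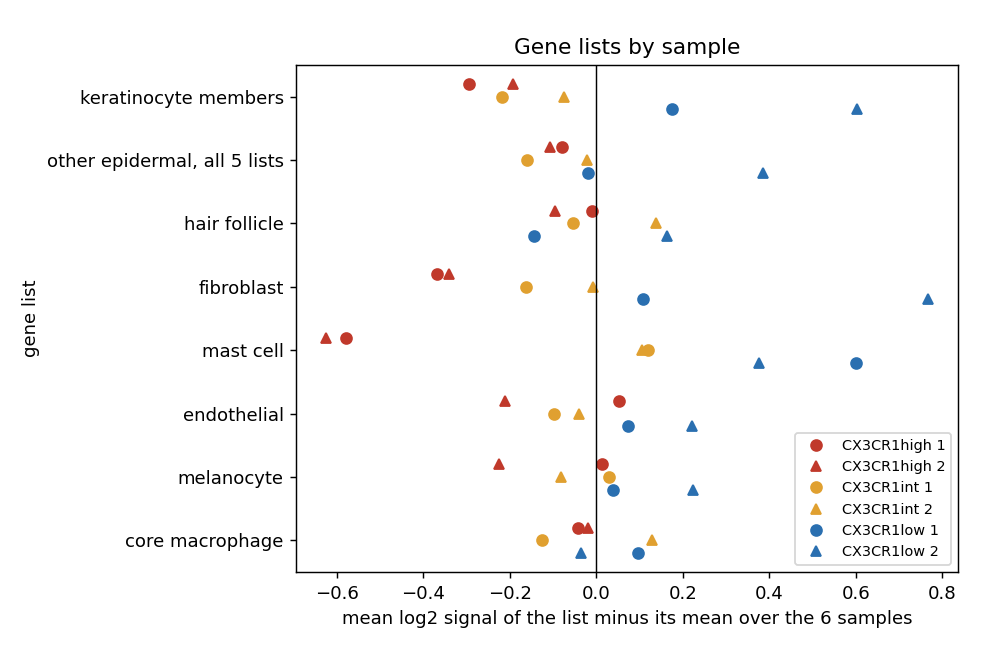
Mean log2 signal of 8 gene lists in each sample relative to the mean of the list over the 6 samples, by subset (colours) and replicate (circle 1, triangle 2). Keratinocyte members and fibroblast genes are highest in CX3CR1low sample 2, mast cell genes in CX3CR1low sample 1, and core macrophage genes overlap between the subsets.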

How the data were processed

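The authors deposited log2 values. Per the submitters' processing notes, RMA and Affymetrix Expression Console 1.4 were used to make them, and no further scaling was applied here. RNA was amplified before labelling, per the labels' protocols. Of 34390 probe sets, 23521 carried 1 gene symbol, 1814 several and 9055 none. The brightest probe set with 1 symbol stood for a gene. A gene was dim, and was not tested, where its mean over the 6 samples was below 4.335, the 30th percentile. All 6 samples were fitted in R 4.3.3 with limma 3.58.1, with a mean for each subset. The prior followed an intensity trend and carried 5.77 degrees of freedom beside 3 residual ones. Tests were two-sided, and p-values were adjusted by Benjamini-Hochberg over 15529 genes. The fit was tested on simulated data with independent noise in each sample. That test did not cover variation shared by samples of the same number. An exact permutation test of 2 samples against 2 cannot go below p = 0.333 and was not used.

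Deviations of same-numbered samples from the subset means correlated at 0.146, 0.136 and 0.178, so the numbers were taken to pair the samples and the replicate block was run beside each result. Since the numbers also separate Xist and Eif2s3y, this pairing cannot be told apart from sex. Members and lists were chosen with earlier results of these data known. Values in every sample are given for members fixed by name and for called members, with called genes and the next of smallest p from the other lists. Alternatives changed the dim filter, the probe sets, the variance prior, the normalisation and the samples. Scan dates and probe intensities were not used here.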

Additional observations from a re-analysis of the deposited data

How the results depend on the processing

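For CX3CR1high against CX3CR1low cells, 2 members were called, against 1 without the dim filter, without the intensity trend, with only the 2 subsets compared, with quantile normalisation or with median centring, 4 with the replicate block, and 0 to 1 with single samples left out. Of all genes 62 were called, against 26 without the dim filter, 154 with the replicate block, 39 with only the 2 subsets compared and 0 to 39 with single samples left out. The members' median of -0.585 then ranged from -0.885 to -0.395. For CX3CR1int against CX3CR1low cells, the 1 gene called among all was 0 without the dim filter, without the intensity trend, with the replicate block, with only the 2 subsets compared, with quantile normalisation, with median centring and, with single samples left out, 0 to 0. For CX3CR1high against CX3CR1int cells, 0 members were called, against 1, Tslp, with the dim filter at the 50th percentile or the replicate block. Of all genes 22 were called there, against 0 without the dim filter, 4 without the intensity trend, 47 with the replicate block, 14 with only the 2 subsets compared, 8 with quantile normalisation and 0 to 17 with single samples left out, when the members' median ranged from -0.165 to 0.025. Between the replicate numbers 0 members were called, against 1, Krtdap, with the dim filter at the 50th percentile. Of all genes 13 were called, against 8 without the dim filter and 0 to 5 with single samples left out, when the median of 0.107 ranged from 0.05 to 0.315. Fits without a sample have fewer degrees of freedom, and those with the lone sample of a subset assume that it varies like the others. Otherwise the cause of these changes was not tested. Among single members, the differences of Krt10 and Tslp between CX3CR1high and CX3CR1low cells, 2 in all, lost their call under at least 1 alternative, 4 differences gained one, and no called difference changed sign.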

Other observations

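Hair follicle genes had no common direction and were weak. Of 22 measured, 6 were dim, and the mean log2 level ranged from 4.558 to 4.865 over the samples. Of 16 tested, 7 were lower and 8 higher in CX3CR1high against CX3CR1low cells, with a median of 0.02. Within samples 1, 5 were lower, and within samples 2, 12 were lower. In the fit of all samples limma called none. At an unadjusted p below 0.05, 1 was lower and 0 higher, against 751 lower and 748 higher of the 15529 genes tested. Their summed linear signal ranged from 607.0 to 667.0 in CX3CR1high, 643.4 to 733.4 in CX3CR1int, and 589.4 to 748.9 in CX3CR1low samples.

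Langerhans cells are the resident phagocytes of the epidermis. Their lectin gene Cd207 was at 7.57 and 8.07 in CX3CR1high, 6.00 and 6.85 in CX3CR1int, and 6.72 and 6.48 in CX3CR1low samples (log2 difference 1.22 between CX3CR1high and CX3CR1low cells, adjusted p = 0.181). Cd24a, another gene of the list, had the opposite sign (-1.04, adjusted p = 0.477) and was at 6.71 and 7.31 in CX3CR1high, 7.66 and 7.59 in CX3CR1int, and 7.30 and 8.79 in CX3CR1low samples. Of the 5 tested Langerhans cell genes, 3 were lower and 2 higher, with a median of -0.14. Epcam, an adhesion molecule of Langerhans cells and of epithelia, was at 5.17 and 5.36 in CX3CR1high, 5.09 and 5.25 in CX3CR1int, and 5.06 and 5.79 in CX3CR1low samples, with overlap between the subsets. T cell, Schwann cell and Langerhans cell lists held no called gene in any comparison of subsets by limma. Between CX3CR1high and CX3CR1low cells they held 1, 1 and 2 genes at an unadjusted p below 0.05, the last 2 being Cd207 and Cd24a. The T cell gene was Thy1 (-1.27), which is also on the fibroblast list and was counted there. Of the 15529 genes tested, 751 were lower and 748 higher at that threshold.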
